A study of Mus musculus with 2 samples.

Results

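The genes described here are 40 genes of DNA replication, out of 10313 genes named on the array, compared between mouse embryonic stem cells that overexpress lincU, a long noncoding RNA, and control cells of the same line. They were chosen by name: every gene whose symbol begins with Mcm, Orc, Gins, Pola, Pold, Pole, Prim, Rfc or Rpa followed by a digit, together with Pcna, Cdc6, Cdt1, Cdc45, Gmnn, Lig1 and Fen1. The rule uses names and positions and no measured value, but it was written with earlier results of these data known. Genes of chromosome 14 were left out, and 0 genes of these names lay there. The rule leaves out Pole, the catalytic subunit of polymerase epsilon, whose symbol has no digit, and takes in Mcm3ap, which is named for its binding to MCM3 but encodes a nuclear export factor. The 40 genes had 64 probe sets, and 22 of them had a single one.

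Both cultures were of the embryonic stem cell line 46C, a line with green fluorescent protein knocked in at the Sox1 locus, and were grown with 15% serum and leukaemia inhibitory factor at 1000 U/ml on feeder cells that were removed before RNA was taken. The control group and the lincU overexpression group had 1 Affymetrix 3' expression array each. How lincU was overexpressed, and whether the cells were a clone or a pool, was not stated in the labels. With 1 array per group, every difference below compares these 2 arrays only; no p-value or standard error was computed.

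Replication is prepared in late mitosis and G1, when the origin recognition complex, CDC6 and CDT1 load the ring-shaped MCM2-7 helicase onto DNA, a step called licensing that geminin blocks after S phase has begun. In S phase CDC45 and the GINS complex join and switch on the helicase, RPA coats the unwound strand, primase and polymerase alpha lay down primers, and polymerases delta and epsilon extend them while held by the clamp PCNA, which the RFC complex loads. Embryonic stem cells have a short G1 and spend much of their cycle in S phase, and many of these genes are textbook targets of the E2F transcription factors.

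E2F letters were common in the promoters of these genes. RefSeq promoter windows of build GRCm38.p6, from 250 bases before to 50 bases after a start of transcription, were at hand for 35 of the 40 genes, 44 windows in all. The letters TTTCCCGC, TTTGGCGC, TTTCGCGC or TTTGCCGC, on either strand, were found in 16 of the 44 windows, or 36.4%. They were found in 2.26% of all 32851 windows and in 4.41% of the 6008 windows of genes bright on these arrays. A match here is a stretch of letters and not evidence that a factor binds. The promoters of Mcm6 and Mcm5, each with overlapping matches, and of Pole4 and Rpa1, which had the largest differences after Orc4, Pole4 with a match and Rpa1 without, are given to show how such matches lie. Each is the 250 bases before the start of transcription, with the E2F letters in capitals.
Mcm6, chr1:128359706-128359955, minus strand: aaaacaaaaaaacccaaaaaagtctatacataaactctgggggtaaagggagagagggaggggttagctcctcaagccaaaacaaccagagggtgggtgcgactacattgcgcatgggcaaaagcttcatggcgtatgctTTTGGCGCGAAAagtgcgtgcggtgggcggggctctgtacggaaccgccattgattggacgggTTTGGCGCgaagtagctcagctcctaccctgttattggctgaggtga
Mcm5, chr8:75109259-75109508, plus strand: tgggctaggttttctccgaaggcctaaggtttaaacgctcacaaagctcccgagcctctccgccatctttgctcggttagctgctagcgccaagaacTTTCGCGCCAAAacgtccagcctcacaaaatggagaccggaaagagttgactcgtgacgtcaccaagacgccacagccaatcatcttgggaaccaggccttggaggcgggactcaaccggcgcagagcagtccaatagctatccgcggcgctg
Pole4, chr6:82652875-82653124, minus strand: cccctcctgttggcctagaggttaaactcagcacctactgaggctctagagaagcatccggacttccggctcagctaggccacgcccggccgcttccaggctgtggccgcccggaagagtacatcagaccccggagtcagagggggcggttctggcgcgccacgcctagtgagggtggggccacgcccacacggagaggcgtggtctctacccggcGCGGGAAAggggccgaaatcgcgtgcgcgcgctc
Rpa1, chr11:75348384-75348633, minus strand: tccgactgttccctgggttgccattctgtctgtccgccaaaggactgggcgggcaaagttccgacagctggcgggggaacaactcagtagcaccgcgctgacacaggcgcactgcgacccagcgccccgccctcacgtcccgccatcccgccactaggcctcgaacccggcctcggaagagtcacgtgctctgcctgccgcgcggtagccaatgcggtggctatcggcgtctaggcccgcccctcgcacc

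The helicase gene Mcm6 held the letters 3 times, at 110, 106 and 47 bases before the start, and the matches at 110 and 106 overlap. Mcm5 held them at 153 and 149 bases before the start, again overlapping. Pole4 held the same stretch of letters in 2 windows that overlap, 34 and 43 bases before their starts. That stretch counts for both windows among the 16. The 15 genes with the letters were Cdc6, Cdt1, Lig1, Mcm3, Mcm5, Mcm6, Mcm7, Orc1, Orc3, Pola1, Pold1, Pold3, Pole2, Pole4 and Rfc3. The CCAAT box, searched as CCAAT on either strand, was in 23 of the 44 windows, or 52.3%, against 37.4% of all windows and 38.1% of those of bright genes. The CHR element, searched as TTTGAA, was in 4 windows, or 9.09%, those of Mcm2, Pold2, Cdc45 and Fen1, against 17.9% of all windows and 11.8% of those of bright genes.

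**Figure D1:**
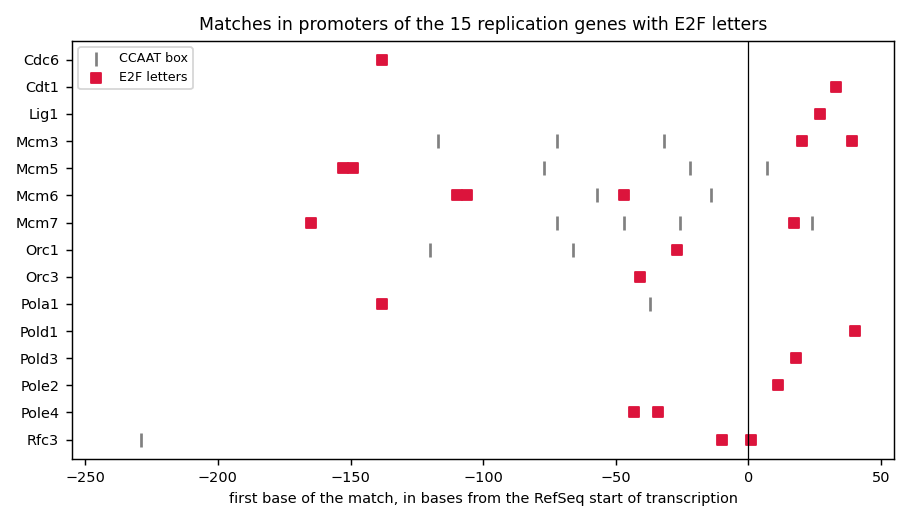
Position of E2F letters (red squares) and CCAAT boxes (grey ticks) in the promoters of the 15 replication genes that hold E2F letters; the horizontal axis is the first base of the match in bases from the RefSeq start of transcription, with 0 marked by a line. Mcm6 and Mcm5 show neighbouring squares where matches overlap, and in Cdt1, Lig1, Mcm3, Pold1, Pold3 and Pole2 all E2F letters lie after the start.

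Of the 40 genes, 38 were bright, meaning that the higher of the 2 signals reached the median of the probe sets with a single gene name on its array, 7.96 for control and 7.90 for overexpressing cells; 54.4% of all genes were bright. Values are log2 signals, and a difference is overexpression minus control on the probe set of highest mean signal. The signal was higher with lincU overexpression for 33 of these 38 and lower for 5, where among all 5402 bright genes off chromosome 14 it was higher for 50.8% and lower for 49.2%. The differences were small: their median was 0.16, against 0.0057 for all those genes, and their range was -0.14 to 0.80. Between their quartiles they ran from 0.031 to 0.24.

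Few of the differences passed a fold threshold. Higher by at least 0.32 on the log2 scale were 3 of the 38, Orc4, Pole4 and Rpa1, where 12.1% of the bright genes were, and lower by that much were 0 of the 38, where 15.6% were. Large differences were rarer at high signal. Of 2864 genes at or above the 75th percentile of signal, 263 were higher and 251 lower by that much. Of the 34 replication genes there, 2 were higher and 0 lower by that much. At least 1.5-fold higher was 1 gene, Orc4, beside 3.76% of the bright genes, and 0 were 1.5-fold lower, beside 5.63%. None was 2-fold higher or lower, beside 0.87% and 1.15% of the bright genes. The only repeated measurement was by different probe sets of a gene, whose differences varied with an SD of 0.23 over 1668 genes with several bright probe sets and of 0.16 over the 16 such replication genes. This SD holds no variation between cultures. By more than 0.23, 11 of the 38 were higher and 0 lower; among all bright genes 18.3% were higher and 21.9% lower by that much.

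The share of higher genes also moved with signal over the whole array, from 43.2% of bright genes at a mean log2 signal under 9 to 68.7% at 13 and over, and replication genes sat mostly in the upper part of that range. In the band from 11 to 12, which held 17 of them, 15 were higher, against 55.4% of all genes in the band. In the band of 13 and over, 6 of 7 were higher. Among the genes at or above the 75th percentile of the same probe sets, 29 of 34 replication genes were higher, against 56% of all. With the trend on signal subtracted by loess, or with quantile normalization, 29 of the 38 were higher in place of 33, or 76.3% in place of 86.8%, and the median was 0.15 or 0.14. Of all bright genes 50.5% were then higher with loess and 49.6% with quantile normalization. Centring both arrays on their medians shifted the differences upward: 36 of the 38 were then higher, and so were 58.6% of all bright genes, whose median was 0.060.

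**Figure D2:**
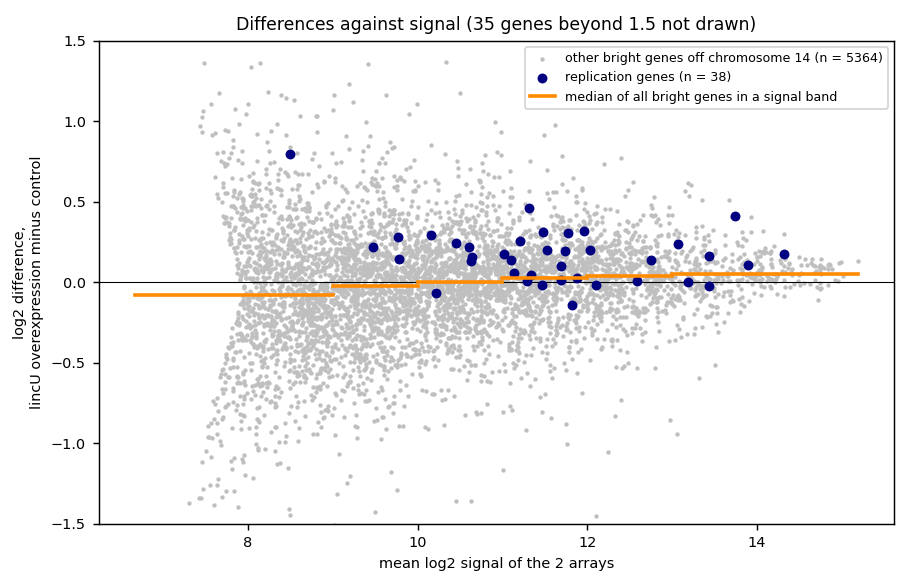
Log2 difference, overexpression minus control, against mean log2 signal for 38 bright replication genes (blue) and 5364 other bright genes off chromosome 14 (grey), with the median of all bright genes in each signal band (orange lines); 35 grey genes beyond the vertical axis are not drawn. Most blue points lie above the orange lines, and the lines climb from -0.082 under a signal of 9 to 0.049 at 13 and over.

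Genes of origin recognition and helicase loading were split. Of the 9, all bright, 6 were higher and 3 lower, with a median difference of 0.098. Orc1, the ATPase subunit of the origin recognition complex whose level follows the cell cycle, went from a log2 signal of 11.03 in control to 11.17 with lincU overexpression, a difference of 0.14. Orc6, the smallest subunit, went from 11.64 to 11.74, a difference of 0.098. Orc2 and Orc5, further subunits of the complex, were lower. Orc2 went from 11.47 to 11.46, and all 3 of its bright probe sets were lower, from -0.14 to -0.016. Orc5 went from 11.90 to 11.75, a difference of -0.14, the lowest of the 38 genes.

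Orc4, an AAA+ subunit of the complex, had the largest difference of the 38, from 8.10 to 8.90, or 0.80. It was the only one with a mean signal under 9, and its other bright probe set, of nearly the same signal, went from 8.36 to 8.61, a difference of 0.25. Orc3, another subunit, went from 10.56 to 10.71, a difference of 0.16, with 0.50 on another bright probe set. That other probe set, at 7.54 and 8.05, reached the brightness limit only in overexpressing cells, so the limit favoured a higher value. A dim probe set of Orc3 went from 5.38, under the control floor, to 6.82. The bright probe sets of Orc4 shared a direction and differed in size by more than 0.23. Those of Orc3 did too, but there the brightness limit favoured the shared direction.

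The loading factor Cdc6 went from 11.07 to 11.33, a difference of 0.25 on its only probe set. Cdt1, its partner in loading, hardly differed, at 13.44 and 13.42 on 1 probe set and 12.02 and 11.98 on the other, differences of -0.025 and -0.044. Gmnn, which encodes geminin, the inhibitor of CDT1, had signals of 12.59 and 12.60, a difference of 0.010. Cdt1 and Gmnn therefore stood at less than the SD between probe sets, and Cdc6 just beyond it. Scaling turned the direction of some of these small values: Cdt1 and Orc2 were higher after centring on the array median, and Gmnn lower after quantile normalization or loess.

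All 6 genes of the MCM2-7 helicase were above 0, with a median of 0.15 and a range of 0.00025 to 0.24. Averaged over all probe sets of each gene the median was 0.078, with Mcm3 at -0.079. Mcm6 had the largest difference and went from 12.95 to 13.19, or 0.24, with 0.26 on its other probe set. Mcm5 went from 11.93 to 12.14, a difference of 0.20, and Mcm4 from 13.35 to 13.52, a difference of 0.16, with 0.0080 on its other probe set. All encode subunits of the same hexameric ring. Mcm2 went from 12.68 to 12.82, a difference of 0.14, and its other probe set stood at -0.038. Mcm7 went from 13.84 to 13.94, a difference of 0.11, and its 4 probe sets ran from -0.042 to 0.14. Mcm3 had the same signal on both arrays, 13.19, and its 4 bright probe sets ran from -0.48 to 0.16, the lowest of them on the dimmest probe set. Of the 6 genes only Mcm6 differed by more than 0.23, and Mcm3 was below 0 after quantile normalization or loess.

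Other genes with Mcm in their name stood near 0 or were dim. Mcm10, which binds the active helicase and polymerase alpha, went from 11.31 to 11.36 on its bright probe set, a difference of 0.047, and from 7.94 to 7.36 on a dim one, a difference of -0.58. The mean of its probe sets was -0.26. Mcm3ap stood at 11.28 and 11.29, a difference of 0.0067, which turned to -0.0028 with loess. Mcm9, a helicase of recombination repair, lay under the floor on both arrays, at 1.26 and 4.79, where values have no order. Mcm8, Gins1, Gins2, Gins3, Rfc5 and Rpa3, which belong to the same complexes or families, were not analysed here.

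The helicase activators measured were both higher. Cdc45 went from 9.36 to 9.58, a difference of 0.22, and Gins4, the only GINS subunit analysed, from 11.64 to 11.83, a difference of 0.19. Each has a single probe set, and each difference is within the SD between probe sets.

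Primase and polymerase alpha, which start each new strand, split into 2 higher and 2 lower genes with a median of 0.018. That median was -0.0041 with quantile normalization and 0.20 with probe sets averaged for each gene, where Pola2 stood at 0.37. Prim2, the large regulatory subunit of primase, went from 10.02 to 10.31, a difference of 0.29, with 0.41 on its other bright probe set. Prim1, the catalytic subunit, stood at 12.11 and 12.09, a difference of -0.020, which was 0.035 after centring. The catalytic subunit gene Pola1 went from 11.11 to 11.16, a difference of 0.056. Pola2, the accessory subunit, went from 10.25 to 10.19, a difference of -0.067, while its dim probe set, under the floor in control, was higher. Of the subunits of this single enzyme, Prim2 alone was beyond 0.23. Prim1, Pola1 and Pola2 lay within it on their brightest probe sets.

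Polymerase delta, which copies the lagging strand, had 3 bright genes, all higher, with a median of 0.28. Its catalytic subunit gene Pold1 went from 9.62 to 9.90, a difference of 0.28. Pold2, the small subunit bound to the catalytic one, went from 11.33 to 11.64, a difference of 0.31. Both exceeded the SD between probe sets, on 1 probe set each. Pold3, a further accessory subunit, went from 9.71 to 9.85, a difference of 0.15, with -0.051 on its other probe set. Pold4, the smallest subunit, was dim, at 7.33 and 6.82, and went the other way by -0.51.

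The accessory subunits of polymerase epsilon, the leading strand polymerase, were all higher, with a median of 0.24. Pole4, which with Pole3 forms a histone-fold pair that also binds histones, went from 11.08 to 11.54, a difference of 0.46, and from 9.66 to 9.93 on its other probe set, a difference of 0.27. Pole3 went from 10.33 to 10.58, a difference of 0.24. Pole2, another accessory subunit, went from 10.93 to 11.11, a difference of 0.18. The catalytic subunit gene Pole, outside the naming rule, went the same way, from 10.44 to 10.85, a difference of 0.41. Every bright probe set of the 4 genes was higher in overexpressing cells.

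The clamp Pcna and the clamp loader genes Rfc1 to Rfc4 were all higher, with a median of 0.20. Pcna had signals of 14.23 and 14.41, a difference of 0.18. Rfc4 went from 11.62 to 11.92, a difference of 0.30, with 0.42 on its other probe set, and Rfc3 from 10.50 to 10.71, a difference of 0.22, with 0.37 on its other probe set. These small subunits of the loader were higher on each of their probe sets. Rfc1, the large subunit that touches PCNA, differed by 0.20 and Rfc2 by 0.13.

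RPA, the single-strand binding complex, had the highest median of the role groups, 0.36 over Rpa1 and Rpa2. Rpa1, the large DNA-binding subunit, went from 13.54 to 13.94 on 1 probe set and from 12.60 to 13.01 on the other, both a difference of 0.41, or 1.33-fold. Rpa2, the subunit phosphorylated in the replication stress response, went from 11.80 to 12.12, a difference of 0.32. These were the only members of the complex analysed, and both exceeded the SD between probe sets. Enzymes that finish lagging-strand fragments hardly differed: the flap nuclease gene Fen1 stood at 11.69 and 11.70, a difference of 0.011, and the ligase gene Lig1 at 11.87 and 11.89, a difference of 0.026. Both stood below 0 with quantile normalization and Fen1 also with loess.

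**Figure D3:**
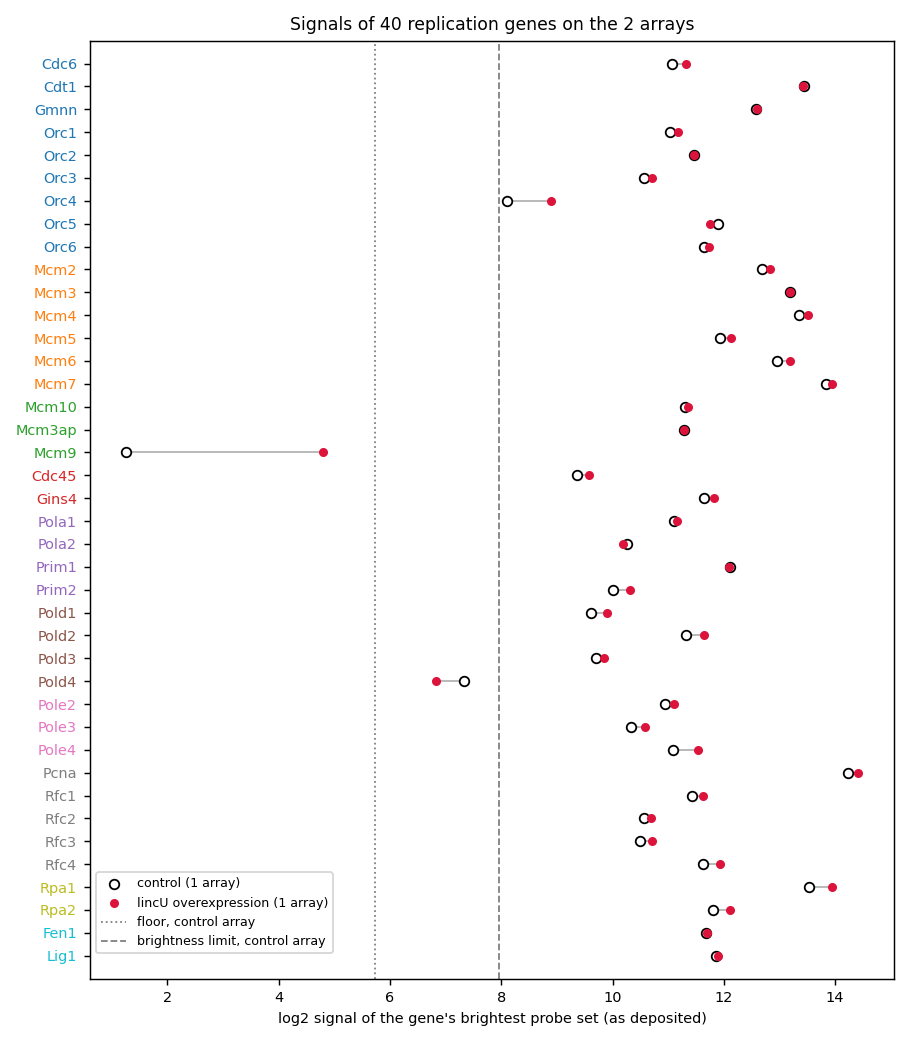
Log2 signal of the probe set of highest mean signal for each of the 40 genes in control (open circles) and overexpressing cells (red), 1 array each, with gene names coloured by role. Most pairs lie close together with red to the right; Mcm9 lies left of the floor (dotted line), where the distance between its points carries no order, and Pold4 lies between the floor and the brightness limit (dashed line).

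Where a gene had several bright probe sets, they mostly shared a direction, as they also did among such genes of the whole array. Of 16 such genes all bright probe sets were higher in 10, namely Fen1, Mcm4, Mcm6, Orc3, Orc4, Pole4, Prim2, Rfc3, Rfc4 and Rpa1. For Orc3 the limit favoured this, since its dimmer bright probe set was bright only in overexpressing cells. In Cdt1 and Orc2 all were lower, and in Mcm2, Mcm3, Mcm7 and Pold3 they were mixed. Among 1668 genes with several bright probe sets off chromosome 14, 32.6% had all of them higher and 28.1% all lower.

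**Figure D4:**
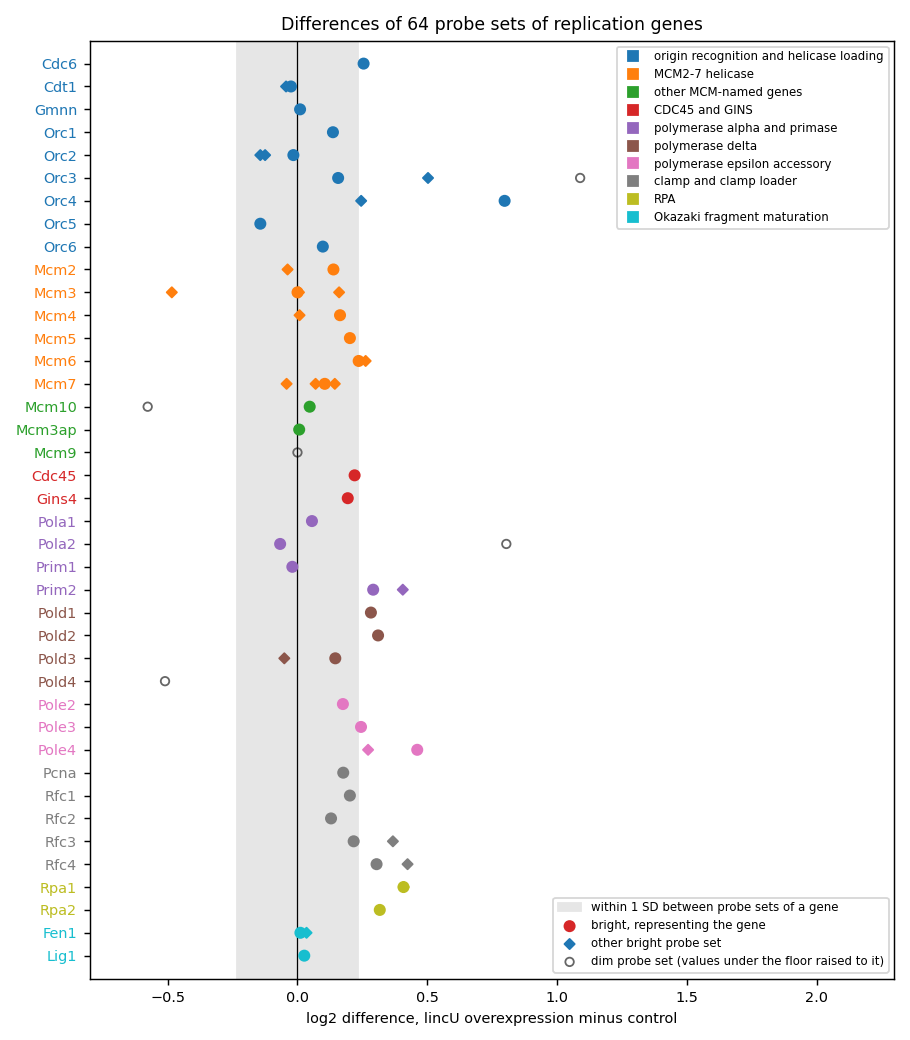
Log2 difference, overexpression minus control, of every probe set of the 40 genes, coloured by role: circles for the probe set that represents the gene, diamonds for other bright ones, open grey circles for dim ones. The grey band is 1 SD, 0.23, of the differences among probe sets of a gene; most points lie right of 0 and inside or just beyond the band, with Rpa1, Pole4, Rfc4, Prim2, Mcm6 and Orc4 outside it on both probe sets.

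Genes with and without E2F letters in the promoter had the same median difference to 2 decimals, and the groups were not tested against each other. Of the 15 genes with the letters, all bright, 14 were higher, with a median of 0.16 and a range of -0.025 to 0.46. Of the 18 bright genes with a window but without the letters, 14 were higher, with a median of 0.16 and a range of -0.14 to 0.80.

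Lists of neighbouring processes had medians of -0.0061 to 0.085. Of 15 bright firing and fork factors outside the naming rule 9 were higher, with a median of 0.047. Besides Pole, Tipin, which travels with the fork, stood at 0.22 and the topoisomerase gene Top1 at -0.31. The kinase gene Cdc7 stood at -0.27, with 0.32 on another bright probe set. Of 11 genes of deoxynucleotide supply 7 were higher, with a median of 0.085, or 0.18 without probe sets named _s_at, _x_at or _a_at. Dck, a salvage kinase, stood at 0.45 and Dctpp1, a pyrophosphatase that cleanses the nucleotide pool, at 0.39. The reductase genes Rrm1 and Rrm2 stood at 0.085 and -0.038. Bright probe sets of Rrm1 ran from -0.059 to 0.085 and those of Rrm2 from -0.20 to 0.024. Of 7 genes of chromatin assembly 4 were higher, with a median of 0.022; the histone chaperone gene Asf1a stood at -0.36 and Chaf1b, of the chromatin assembly factor, at 0.26.

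Of 7 E2F, DP and pocket protein genes 5 were higher, with a median of 0.084; E2f1 stood at 0.22 and its partner Tfdp1 at -0.22. Of 7 checkpoint genes 6 were higher, with a median of 0.078. The checkpoint median was 0.15 with quantile normalization and 0.17 without probe sets named _s_at, _x_at or _a_at, where that of the replication genes was 0.14 and 0.16. Hus1, of the checkpoint clamp, stood at 0.33, with -0.062 on another probe set, Rad17, which loads that clamp, at 0.32, and the kinase gene Atr at 0.26. Of 4 translesion and repair polymerase genes 2 were higher, with a median of -0.0061; the base excision repair polymerase Polb stood at 0.54 and Rev1 at -0.49. Of 15 mitotic genes 7 were higher, with a median of -0.0037; the spindle motor gene Kif11 stood at -0.26 and Ndc80, of the kinetochore, at 0.21. These medians stand beside 0.16 for the replication genes and 0.0057 for all bright genes; with 1 array per group the difference between lists was not tested, and the order of the medians turned with the processing for the checkpoint and deoxynucleotide lists. Wdhd1, Supt16 and Rb1, also on these lists, lie on chromosome 14 and were left out.

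**Figure D5:**
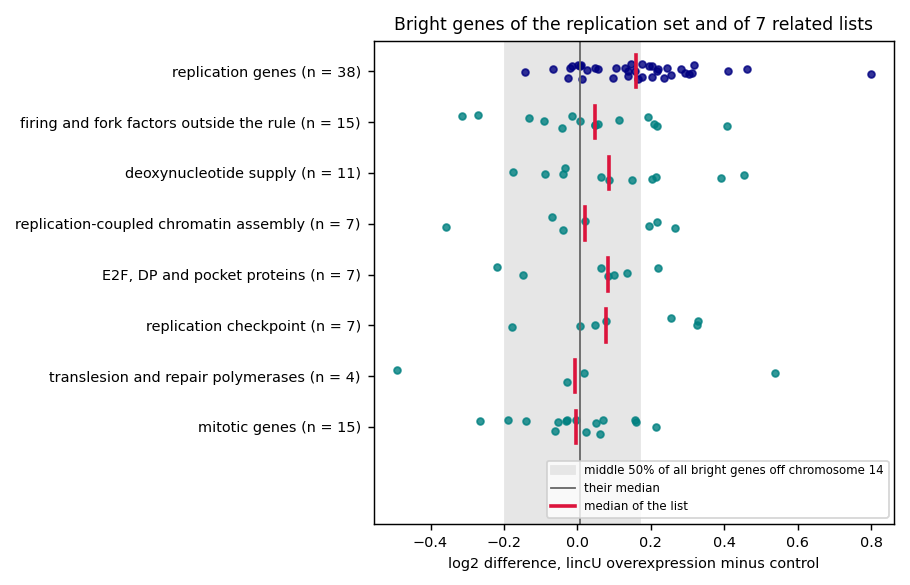
Log2 difference, overexpression minus control, of bright genes in the replication set (38 genes) and 7 related lists, 1 point per gene, with the median of each list in red. The grey band is the middle 50% of all bright genes off chromosome 14; the replication median of 0.16 lies near the upper edge of the band and the mitotic median of -0.0037 at its middle.

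Both arrays gave signal for genes used as markers of the cell types that the labels name. All 8 embryonic stem cell markers measured were bright, with log2 signals of 10.64 to 14.85 in control and 10.95 to 14.83 in overexpressing cells. Of these 5 were higher and 3 lower, with a median difference of 0.24 that is above the 0.16 of the replication genes. Esrrb stood at 0.65, with 0.17 on its other bright probe set, Nanog at 0.57 and Utf1 at -0.43. The part of this in the replication result was not tested. Of 16 feeder fibroblast markers measured 13 were bright, 6 higher and 7 lower, with a median difference of -0.043. The summed signal of those 13 was 14.87 in control and 14.90 in overexpressing cells on the log2 scale. Vim, at 13.34 in control, and Fn1, at 12.72, were the brightest, while Col1a1, Pdgfrb and Prrx1 stood at 8.10 to 8.32. Lum, Twist1 and Pdgfra were dim, and Pdgfra lay under the floor in control. The sum leans on its brightest genes and does not measure how many feeder cells remained. Whether the higher signals hold beyond these 2 arrays was not tested. If they do, more RNA per cell and a larger share of cells in S phase cannot be told apart in these bulk samples. None of the 40 genes lay on the distal part of chromosome 6, from Rad18 to Resf1, so leaving that stretch out changed none of their values.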

How the data were processed

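The authors deposited a table of log2 signals for both arrays; the submitters' processing notes name MAS5 and affy, without version or role, and the log2 scale was read from the values. Probe sets were named through the platform annotation, with symbols updated by gene ID from RefSeq (GRCm38.p6): 15273 of 16994 had a single gene name and 501 several, and 15252 of the former matched RefSeq. Values were used without further scaling. Taken over singly named probe sets, the 25th percentile was 5.73 in control and 5.65 in overexpressing cells; lower values were raised to it, and a gene under it on both arrays was given a difference of 0. Each gene took the values of the probe set with the highest mean signal. Genes, lists and rules were chosen with earlier results of these data known. Of each related list the named genes are among the 4 bright ones with the largest difference, plus Pole; Rrm1 and Rrm2 were added after their values were seen. The 1.5-fold call was tested on simulated data with planted 2-fold changes, larger than any difference of the 38 bright replication genes. That test does not bear on smaller differences, on medians or on counts of direction. Alternatives changed scaling, floor, brightness, probe sets and fold. Python 3.11.15, numpy 2.4.6, pandas 2.3.3 and statsmodels 0.14.6 were used. The number of arrays limits the precision.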

Additional observations from a re-analysis of the deposited data

How the results depend on the processing

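No paired analysis was possible because each group had 1 array, and no replicate could be left out. The median of the replication genes stayed between 0.14 and 0.22 under 10 alternatives of scaling, floor, brightness, probe sets and left-out regions, and that of all bright genes between -0.0024 and 0.060. The number of replication genes below 0 was 5, and it was 2 with centring on the array medians and 9 with quantile normalization or loess. It was 6 with the mean over probe sets, without probe sets named _s_at, _x_at or _a_at, or with the brightness limit dropped. The count of 1 gene at least 1.5-fold higher was 0 with brightness at the 75th percentile and 0 with the mean over probe sets; with a threshold of 0.32 on the log2 scale it was 3 and at 2-fold 0. The median of the other MCM-named genes was -0.29 without probe sets named _s_at, _x_at or _a_at, where Mcm10 was left with its dim probe set. Of the alternatives, 5 (the floor dropped or moved to the 40th percentile, the brightness limit dropped or moved to the 75th, and distal chromosome 6 left out) gave every bright replication gene its original value, so they tested only the lists and counts. Under the 5 that could move single genes, 181 of 186 differences moved by under 0.23, the SD between probe sets, and 5 by more. The latter belong to Mcm10, Orc3, Orc4 and Pola2. Only 11 of the 38 bright genes differed by more than 0.23 at first, so this count does not show that directions held. Direction turned for 3 genes with centring (Cdt1, Orc2 and Prim1). It turned for 4 with quantile normalization (Fen1, Gmnn, Lig1 and Mcm3) and for 4 with loess (Fen1, Gmnn, Mcm3 and Mcm3ap). With the mean over probe sets it turned for Mcm10 (-0.26), Mcm3 (-0.079) and Pola2 (0.37). Without probe sets named _s_at, _x_at or _a_at it turned for Mcm10 (-0.58). The median of the checkpoint list, 0.078, lay between 0.13 and 0.17 with centring, quantile normalization, loess, the brightness limit dropped or moved to the 75th percentile, or without probe sets named _s_at, _x_at or _a_at. At low signal the arrays limit what can be seen: Mcm9 lay under the floor.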
